A study of Mus musculus with 6 samples.

Results

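Conventional type 1 dendritic cells (cDC1) are the dendritic cells that take up dead cells and present their antigens on MHC class I to CD8 T cells, a process called cross-presentation. Their development from bone marrow progenitors depends on the transcription factors IRF8, BATF3, ID2 and NFIL3. They are recognised by the chemokine receptor XCR1 and the dead-cell receptor CLEC9A, and the protein WDFY4 is needed for cross-presentation of cell-associated antigen. In mouse models of myeloid leukaemia these genes are read against a background of monocytes, granulocytes and progenitors, which far outnumber dendritic cells in blood-forming tissue.

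The 10 genes described here are 9 that mark or serve cDC1, namely Xcr1, Clec9a, Cadm1, Itgae, Batf3, Wdfy4, Rab7b, Snx22 and Gcsam, and Zbtb46, a factor shared by conventional dendritic cells. They were taken by their GENCODE vM21 mouse symbols. Each symbol matched 1 Ensembl identifier in the count tables, so the genes are 10 of 46078 identifiers. All 10 passed the filter on low counts and are among the 18097 genes tested, and for all 10 each WT library on its own lay above the filter level of 0.130 CPM (counts scaled to the library total).

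RNA sequencing of total RNA was compared between 3 libraries labelled as juvenile myelomonocytic leukaemia (JMML) and 3 libraries labelled wild type (WT), all from the mouse. JMML is a myeloid leukaemia of early childhood, and the series title speaks of a mouse model of it that depends on age. The labels used here name only these groups, and do not state the altered genes, the strain, the age, the tissue or any cell sorting. They give each library its own identifier but do not say that replicates came from separate animals. The Xist and Ddx3y counts below set JMML 3 apart from JMML 1 and 2, so these 3 libraries were not all from the same animal. The p-values cover only the spread of these 6 libraries, part of which may be technical. The libraries held 91976512, 108395459 and 95382538 counts in JMML 1 to 3 and 61656272, 47096464 and 56163368 counts in WT 1 to 3. Values below are CPM scaled by TMM, a factor per library that levels the bulk of genes, and 1 count was worth 0.00951 to 0.0192 scaled CPM.

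The libraries differed in another way than their group. The identifiers of JMML 1 and 2 end in the letter F, and those of JMML 3 and all 3 WT libraries end in M. Xist, the X-inactivation RNA, had 54449 and 49961 counts in JMML 1 and 2 and 4 to 36 counts in the other 4 libraries, and the Y-linked gene Ddx3y had 0 counts in JMML 1 and 2 and 3588 to 5529 counts in the others. By these counts JMML 1 and 2 were female and the other 4 libraries male. Letter, sex and group are therefore partly the same contrast, and results are also given with the letter in the model or within the 4 M libraries where that ends a call. JMML 3 is the only JMML library among those 4. The fit with the letter takes its group difference from the same 4 libraries, so these 2 alternatives are not separate checks.

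Of the 18097 genes, 26.1% were called different at a Benjamini-Hochberg adjusted p under 0.05 by the quasi-likelihood test of edgeR, 12.5% higher and 13.6% lower in JMML. Their log2 fold changes had a median of −0.02. Of the 10 cDC1 genes, 8 were called higher and 0 lower. Without adjustment, 9 were higher and 0 lower at a p under 0.05, and DESeq2 and limma-voom each called 9 higher and 0 lower. The median log2 fold change of the 10 genes was 1.76. In 8 genes every JMML library lay above every WT library, a pattern seen in 22.9% of all tested genes, and in 0 genes every JMML library lay below, a pattern seen in 24.6%. These are bulk RNA values, in which more cells of a type and more RNA per cell cannot be told apart. The 10 genes were chosen with earlier results of these data known, so the counts set beside all genes are a description.

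Xcr1 and Clec9a are the receptors most closely tied to cDC1, and the bases just upstream of their annotated starts are shown because these 2 genes head the results that follow. The sequences are from RefSeq (GRCm38.p6), 250 bases before the start, 5′ to 3′ on the strand of the gene, and the RefSeq and GENCODE starts coincide for both. The Xcr1 window is chr9:123862030-123862279 on the minus strand and the Clec9a window is chr6:129408612-129408861 on the plus strand.
Xcr1: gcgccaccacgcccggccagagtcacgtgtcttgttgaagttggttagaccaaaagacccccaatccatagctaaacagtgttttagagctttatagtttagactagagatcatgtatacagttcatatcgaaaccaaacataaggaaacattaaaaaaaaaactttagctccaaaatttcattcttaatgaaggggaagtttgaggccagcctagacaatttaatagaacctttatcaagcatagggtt
Clec9a: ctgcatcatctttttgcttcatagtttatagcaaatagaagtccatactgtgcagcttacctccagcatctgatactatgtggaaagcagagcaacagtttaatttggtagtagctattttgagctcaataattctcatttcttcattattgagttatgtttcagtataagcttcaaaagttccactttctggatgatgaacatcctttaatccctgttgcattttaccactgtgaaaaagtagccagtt

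These windows were poor in G and C. GC content was 38.8% for Xcr1 and 35.6% for Clec9a, below the lower quartile of 45.2% over all 32851 RefSeq windows, whose median was 52.4%. The Clec9a window held 0 CpG dinucleotides and the Xcr1 window 5, against a median of 6. Batf3 stood at the other end, with 76% GC and 27 CpG. Windows were found for 7 of the 10 genes.

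BATF3 pairs with JUN proteins and binds, with IRF8, to composite DNA elements that join an AP-1 site to an interferon regulatory factor site. Searches ran on both strands of windows of 300 bases, from 250 before to 50 after the start. The letters were TGANTCA (AP-1), GAAA and GAAA with NN between them (IRF), GAAA joined directly to TGANTCA (the short composite), and TTTC, NNNN and TGANTCA in a row (the spaced composite). Both composites contain the AP-1 letters. In this order the motifs were held by 7.81%, 3.44%, 0.125% and 0.119% of all windows. Of the 7 genes with a window, only Zbtb46 held any of them. Its match, read on the strand of the gene as TGACTCATTTC, is the reverse complement of the short composite and lies 50 to 61 bases before the RefSeq start. That RefSeq start is 35038 bases inside the gene as GENCODE draws it, so the window is within the gene body of the GENCODE model. A match is a string of letters, and no binding was measured in these libraries.

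**Figure D1:**
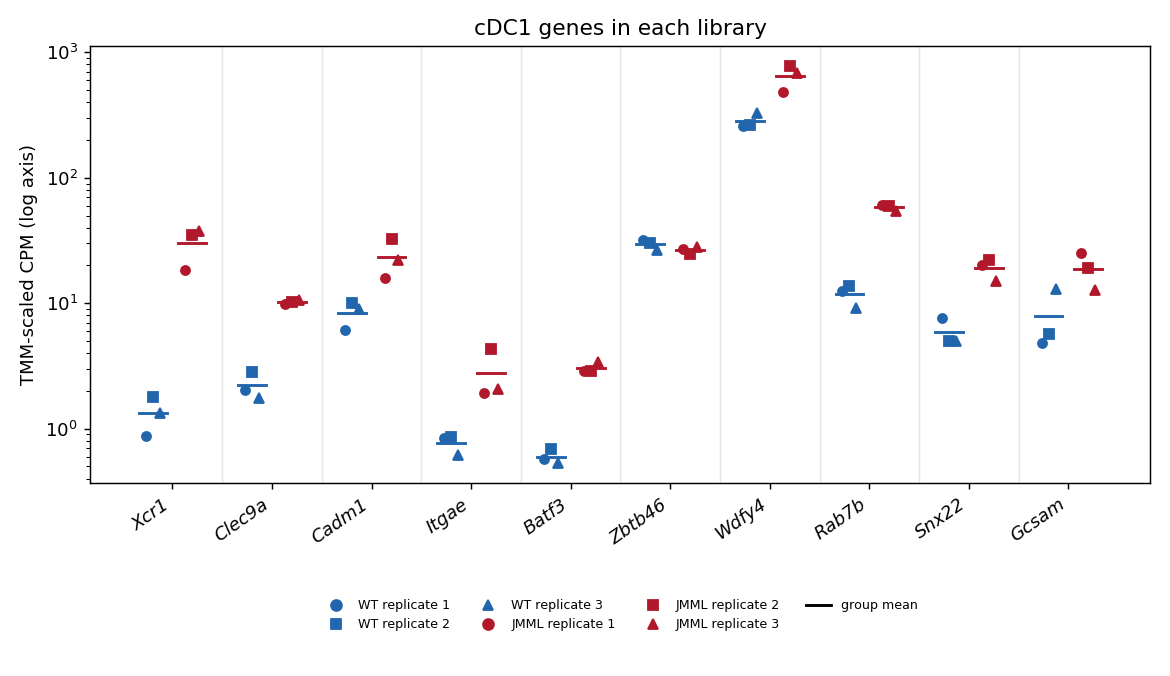
Scaled CPM of each of the 10 genes in every library, on a log axis, with JMML and WT libraries as points and group means as bars. Xcr1 lay at 18.4 to 37.5 in JMML and at 0.877 to 1.78 in WT, while Zbtb46 lay between 24.7 and 32.1 in all 6 libraries.

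Xcr1 encodes the receptor for the chemokine XCL1, with which cDC1 approach T cells and NK cells. It lies on chromosome 9, from 123852315 to 123862029 on the minus strand. Xcr1 was at 18.4, 35.1 and 37.5 scaled CPM in JMML 1 to 3, from 1510, 3691 and 3409 counts. The WT libraries were at 0.877, 1.78 and 1.34 scaled CPM, from 57, 93 and 78 counts. The groups were far apart, with JMML 1 the lowest of its group and still well above the highest WT library. The means were 30.3 ± 10.4 in JMML and 1.33 ± 0.453 in WT (SD, n = 3 each), a 22.8-fold difference. The log2 fold change was 4.51 ± 0.38 (SE; edgeR adjusted p = 0.00145), the largest of the 10 genes, and it lay between 4.34 and 4.86 in the 15 alternative analyses.

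Clec9a encodes the receptor that binds actin exposed on dead cells. The gene lies on chromosome 6, from 129408862 to 129424763 on the plus strand. Its JMML libraries were at 9.86, 10.3 and 10.6 scaled CPM and its WT libraries at 2.03, 2.84 and 1.77. The JMML values differed from each other by 1.08-fold, the narrowest range of the 10 genes in that group. The means were 10.2 ± 0.374 and 2.21 ± 0.555 (SD, n = 3 each), and the log2 fold change was 2.21 ± 0.23 (edgeR adjusted p = 0.00195). Exons of Clec9a overlap those of Clec1b, a platelet receptor gene on the same strand, so reads in the shared part cannot be assigned. Clec1b itself was lower in JMML, at 2.01 ± 0.540 against 14.8 ± 7.64 scaled CPM (log2 fold change −2.88 ± 0.40, adjusted p = 0.00392), the opposite direction to Clec9a.

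Cadm1, an adhesion molecule on cDC1, lies on chromosome 9 from 47530173 to 47857637 on the plus strand. It was at 15.8, 32.3 and 22.2 scaled CPM in JMML and at 6.08, 9.98 and 9.03 in WT. All JMML libraries were higher, JMML 1 by the least. The log2 fold change was 1.49 ± 0.30 (edgeR adjusted p = 0.0120). With the identifier letter in the model it was 1.41 and no longer passed the threshold (adjusted p = 0.0613).

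Itgae encodes CD103, the integrin chain that binds E-cadherin and marks cDC1 of many tissues, and it lies on chromosome 11 from 73090583 to 73147446 on the plus strand. It was at 1.93, 4.28 and 2.08 scaled CPM in JMML and at 0.846, 0.862 and 0.619 in WT. JMML 2 stood above the other JMML libraries, which were close to each other. The log2 fold change was 1.83 ± 0.39 (edgeR adjusted p = 0.0151). The call ended with the letter in the model (1.42, adjusted p = 0.0970), among M libraries only (1.46, adjusted p = 0.0735) and without WT 2 (1.91, adjusted p = 0.0525). Itgb7, the partner chain of CD103, was at 267 ± 2.04 scaled CPM in JMML and 104 ± 11.1 in WT (log2 fold change 1.35 ± 0.11, adjusted p = 0.00140). Cdh1, the gene of the ligand E-cadherin, went the other way, at 2.69 ± 0.624 against 8.41 ± 2.20 (log2 fold change −1.64 ± 0.28, adjusted p = 0.00730). Its call ended with the letter in the model (adjusted p = 0.0677) and among M libraries (adjusted p = 0.0714).

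Batf3 encodes the AP-1 family factor without which most cDC1 fail to develop. It lies on chromosome 1, from 191097847 to 191108945 on the plus strand. The JMML libraries were at 2.88, 2.89 and 3.39 scaled CPM, from 236, 304 and 308 counts, and the WT libraries at 0.569, 0.690 and 0.533, from 37, 36 and 31 counts. The values were tight within each group and did not overlap. Means were 3.05 ± 0.2902 and 0.597 ± 0.0821 (SD, n = 3 each), and the log2 fold change was 2.35 ± 0.27 (edgeR adjusted p = 0.00243).

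Zbtb46 encodes a zinc finger factor that, among immune cells, marks conventional dendritic cells and their committed precursors, and it is also active in endothelium and erythroid progenitors. It lies on chromosome 2, from 181387762 to 181459426 on the minus strand. Its JMML libraries were at 27.0, 24.7 and 28.2 scaled CPM and its WT libraries at 32.1, 30.01 and 26.4. The groups overlapped, with WT 3 below 2 of the JMML libraries. The log2 fold change was −0.15 ± 0.13 (edgeR adjusted p = 0.430), and between −0.33 and −0.03 in the alternatives. Zbtb46 was the only one of the 10 genes with a lower mean in JMML. The summed scaled CPM of 10 endothelial markers was 295 to 482 in WT and 79.3 to 125 in JMML, and whether that bears on Zbtb46 was not tested.

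Wdfy4 encodes a large BEACH-domain protein required for cross-presentation of cell-associated antigen by cDC1. The gene is on chromosome 14, from 32959547 to 33185508 on the minus strand. It was at 478.9, 780.8 and 677.8 scaled CPM in JMML and at 260.3, 263.8 and 331.3 in WT. This was the most abundant of the 10 genes in both groups, and it is also expressed in B cells. The log2 fold change was 1.18 ± 0.20 (edgeR adjusted p = 0.00668), the smallest among the 8 called genes. The 10 B cell markers summed to 12.5 to 21.01 scaled CPM in JMML and 139 to 533 in WT. The part of B cells or other cells in the Wdfy4 value was not tested.

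Rab7b encodes a small GTPase of late endosomes, on chromosome 1 from 131688695 to 131715439 on the plus strand. It was at 61.0, 59.2 and 54.0 scaled CPM in JMML and at 12.6, 13.8 and 9.20 in WT. The JMML values were again close to each other. Means were 58.1 ± 3.62 and 11.9 ± 2.39, and the log2 fold change of 2.29 ± 0.17 had the smallest adjusted p of the 10 genes (edgeR, 0.00129).

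Snx22 encodes a sorting nexin, a class of proteins that bind membrane lipids and sort endosomal cargo, and lies on chromosome 9 from 66065176 to 66069719 on the minus strand. It was at 20.01, 22.04 and 15.1 scaled CPM in JMML and at 7.69, 5.04 and 5.02 in WT. The groups did not overlap, and the log2 fold change was 1.68 ± 0.23 (edgeR adjusted p = 0.00389). Its exons overlap those of Ppib, a cyclophilin gene on the opposite strand. Ppib was at 231 ± 38.9 scaled CPM in JMML and 147 ± 18.0 in WT (log2 fold change 0.65 ± 0.15, adjusted p = 0.0206), a call that ended with the letter in the model (0.131), among M libraries (0.0824) and without WT 2 (0.0733). Whether the counting used strand is not given in the sources used here, so the share of Snx22 counts that belongs to Ppib is unknown.

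Gcsam encodes a signalling adaptor known from germinal centre B cells that is also part of mouse cDC1 signatures, and it lies on chromosome 16 from 45610380 to 45622867 on the plus strand. It was at 24.99, 18.96 and 12.7 scaled CPM in JMML and at 4.78, 5.73 and 13.1 in WT. WT 3 was above JMML 3, so the groups overlapped. The log2 fold change was 1.26 ± 0.43 and did not pass the threshold (edgeR adjusted p = 0.0684). Without WT 3 it was 1.88 (adjusted p = 0.00972), and DESeq2 (adjusted p = 0.00677) and limma-voom (adjusted p = 0.0428) called it higher with all libraries. With the identifier letter in the model it was 0.69. WT 3 was also the library with the highest sum of B cell markers, 533 scaled CPM against 162 and 139 in WT 1 and 2, and the part of this in the Gcsam value was not tested.

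**Figure D2:**
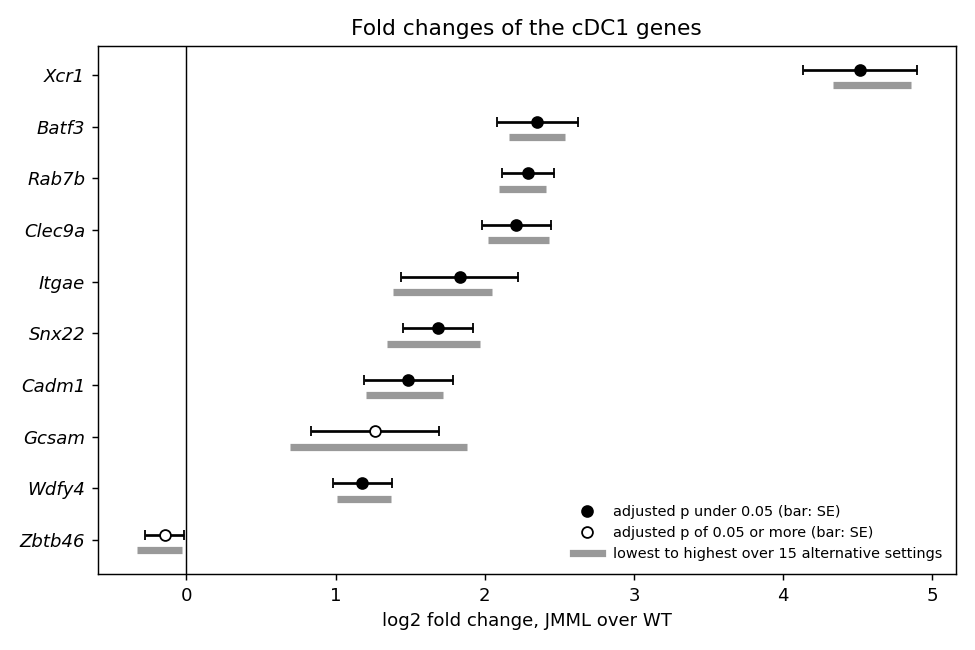
Log2 fold change, JMML over WT, of the 10 genes with its SE from the quasi-likelihood fit, and the range over the 15 alternative analyses. The 8 called genes run from 1.18 for Wdfy4 to 4.51 for Xcr1, and Zbtb46 at −0.15 lies nearest to 0.

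Levels of different genes can be compared only per length. In JMML, scaled CPM per kilobase of exon ran from 61.2 for Wdfy4 through 12.6 for Rab7b, 6.81 for Xcr1, 6.59 for Snx22, 5.51 for Gcsam, 3.13 for Zbtb46, 3.11 for Clec9a, 2.24 for Cadm1 and 1.91 for Batf3 to 0.603 for Itgae. Xcr1, Snx22 and Gcsam, then Zbtb46 and Clec9a, and then Cadm1 and Batf3 differed by less than the SD over libraries. In WT the order was different in the middle. Wdfy4 was again first at 27.0 per kilobase, but Zbtb46 came next at 3.47, then Rab7b at 2.57, and Xcr1 at 0.299 was above Itgae alone, at 0.169. The JMML libraries did not rank alike for all genes: JMML 1 was the lowest JMML library for Xcr1, Clec9a, Batf3, Cadm1, Itgae and Wdfy4, JMML 3 for Rab7b, Snx22 and Gcsam, and JMML 2 for Zbtb46.

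Ratios between genes within a library do not depend on the scaling. For 4 ratios, chosen after values were seen, the JMML and WT libraries did not overlap. An exact two-sided permutation test over libraries gave p = 0.1 for each, also after adjustment over the 4. That is the smallest p that 3 against 3 libraries allow. It is fixed once the groups do not overlap, so the test adds nothing to the values themselves. The log2 ratio of Xcr1 to Clec9a was 0.90, 1.77 and 1.82 in JMML and −1.21, −0.67 and −0.40 in WT. The order of these receptors in counts was thus reversed between the groups, with Xcr1 above Clec9a in every JMML library and below it in every WT library. The log2 ratio of Clec9a to Zbtb46 was higher in JMML by 2.38, and that of Batf3 to Irf8 by 1.27. Clec9a shares exon bases with Clec1b, which was at 14.8 ± 7.64 scaled CPM in WT and 2.01 ± 0.540 in JMML. The part of Clec1b reads in the ratios with Clec9a was not tested.

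The pattern of Xcr1 over the 6 libraries was compared with that of 10510 genes with a mean log2 CPM of at least 2. The nearest were Cbfb, a core-binding factor subunit (Pearson r = 0.999), Pde8a, a phosphodiesterase (0.998), Tbk1, a kinase of the interferon pathway (0.997), Evi2b (0.997) and Pgm1, a phosphoglucomutase (0.997). All 5 were called higher in JMML, with smaller log2 fold changes than Xcr1, for example Pde8a with a log2 fold change of 1.15 ± 0.13 and Cbfb with 0.63 ± 0.10. The call of Tbk1 (0.43 ± 0.10, adjusted p = 0.0180) ended in 6 of the 15 alternatives, among them library totals alone (0.25, adjusted p = 0.167), the letter in the model (0.0725), M libraries only (0.0625), without JMML 3 (0.0507) and without WT 2 (0.0623). Among the other cDC1 genes r with Xcr1 ran from 0.988 for Batf3 and 0.983 for Clec9a through 0.752 for Gcsam to −0.61 for Zbtb46. With 6 libraries in 2 groups these values mostly describe the difference between the groups.

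A list of 23 further genes known from cDC1 signatures was read in the same fit. Of these, 18 were called higher and 1 lower in JMML, against 12.5% and 13.6% of all tested genes, and the median log2 fold change was 1.67. This list and those below were chosen with earlier results of these data known, so the count is a description. Irf8, Id2 and Nfil3 are on this list and also on that of development factors below. For 3 of the 23, at least 1 WT library lay below the level of the filter, so those passed through JMML. The lowest number called higher in an alternative was 13, among M libraries only. Naaa, a lysosomal amidase used as a cDC1 marker, was at 280 ± 36.4 scaled CPM in JMML and 50.02 ± 1.32 in WT (log2 fold change 2.49 ± 0.13, edgeR adjusted p = 0.000432). Btla, an inhibitory receptor, was at 65.0 ± 5.05 against 20.5 ± 2.46 (1.67 ± 0.13, adjusted p = 0.00136).

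The toll-like receptors of cDC1 were among them. Tlr3, the sensor of double-stranded RNA, was at 48.3 ± 8.93 scaled CPM in JMML and 4.02 ± 0.538 in WT (log2 fold change 3.59 ± 0.19, adjusted p = 0.000432). Tlr11, the sensor of profilin from Toxoplasma, was at 19.7 ± 1.42 and 1.09 ± 0.264 (4.17 ± 0.22, adjusted p = 0.000432). Sept3, a septin, was at 22.7 ± 6.16 and 0.780 ± 0.223 (4.86 ± 0.32, adjusted p = 0.000801). Cd207, the gene of langerin, named here after its values were seen, had 38, 58 and 24 counts in JMML and 0 in every WT library, so it was at least 8.24-fold higher against a floor of 3 counts per library. Its call ended among M libraries only (adjusted p = 0.0926). The 1 gene called lower, Cd8a, is the co-receptor that marks lymphoid cDC1 but also CD8 T cells. It was at 2.62 ± 0.834 in JMML and 8.15 ± 4.30 in WT (log2 fold change −1.64 ± 0.42, adjusted p = 0.0276). The 10 T cell markers, with Cd8a itself among them, summed to 14.97 to 22.97 scaled CPM in JMML and 47.4 to 77.9 in WT. The Cd8a call ended without JMML 1, JMML 2, WT 1 or WT 2, with the replicate block (adjusted p = 0.0746), with the letter in the model (0.208) and among M libraries. The part of T cells in the Cd8a value was not tested.

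The factors that direct dendritic cell development did not move as a block. Of 20 listed, 8 were called higher and 3 lower, against 12.5% and 13.6% of all tested genes. The number lower was thus near the share over all genes. The median log2 fold change was 0.35. The median was 0.58 without JMML 1, and scaling by library totals alone gave 0.17 with 6 higher and 4 lower. Irf8, required for cDC1 and for monocytes, was at 293, 458 and 412 scaled CPM in JMML and 192, 180 and 168 in WT (log2 fold change 1.11 ± 0.17, adjusted p = 0.00536). Its partner Batf3 had a log2 fold change of 2.35. Id2, an inhibitor of E proteins needed for cDC1, was at 281 ± 42.8 against 62.0 ± 9.78 (2.182 ± 0.17, adjusted p = 0.00136), and Nfil3, which acts upstream of Id2, at 36.9 ± 6.37 against 16.1 ± 3.19 (1.19 ± 0.19, adjusted p = 0.00604).

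Tcf4, the E protein that ID2 opposes and that drives plasmacytoid dendritic cells, was lower in JMML, at 25.3 ± 2.36 against 63.9 ± 3.23 scaled CPM (log2 fold change −1.34 ± 0.12, adjusted p = 0.00145). The log2 ratio of Id2 to Tcf4 was 3.73, 3.36 and 3.31 in JMML and −0.24, 0.00 and 0.07 in WT, a difference of 3.52. Irf4, the factor of type 2 conventional dendritic cells (cDC2) and of B lineage cells, was at 2.99, 2.52 and 3.30 in JMML and at 21.9, 21.3 and 57.0 in WT (log2 fold change −3.51 ± 0.43, adjusted p = 0.00361). WT 3, highest for Irf4, was also highest for the sum of B cell markers, whose part in the Irf4 value was not tested. Among M libraries only, the Irf4 value was −3.30 with an adjusted p of 0.0903.

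The remaining named factors split. Batf, a relative of BATF3 that can stand in for it, was at 13.04 ± 0.426 against 6.50 ± 0.962 scaled CPM (log2 fold change 1.003 ± 0.17, adjusted p = 0.00669), a call that ended among M libraries only (0.99, adjusted p = 0.0562). Batf2 had 9 to 49 counts per library and a log2 fold change of 0.32 (adjusted p = 0.758). Spi1, the gene of PU.1, was higher, at 199 ± 21.1 against 91.1 ± 11.5 (1.13 ± 0.14, adjusted p = 0.00265). Zeb2, a repressor of the cDC1 fate that opposes Id2, was at 166 ± 37.8 in JMML and 221 ± 32.8 in WT (−0.41 ± 0.19, adjusted p = 0.152). Every JMML library lay below every WT library for Zeb2, and with the letter in the model it was called lower (−0.85, adjusted p = 0.0369). Among M libraries, where JMML 3 stood alone for JMML, the Zeb2 value was −0.81. JMML 3 was the lowest library for Zeb2, at 123 scaled CPM against 186 and 190 in JMML 1 and 2. Jun and Junb, AP-1 partners of BATF factors, were called higher, with log2 fold changes of 1.55 ± 0.25 (adjusted p = 0.00622) and 1.38 ± 0.22 (adjusted p = 0.00604). For Junb the value was 0.81 with the letter in the model and 0.84 among M libraries, both still called.

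**Figure D3:**
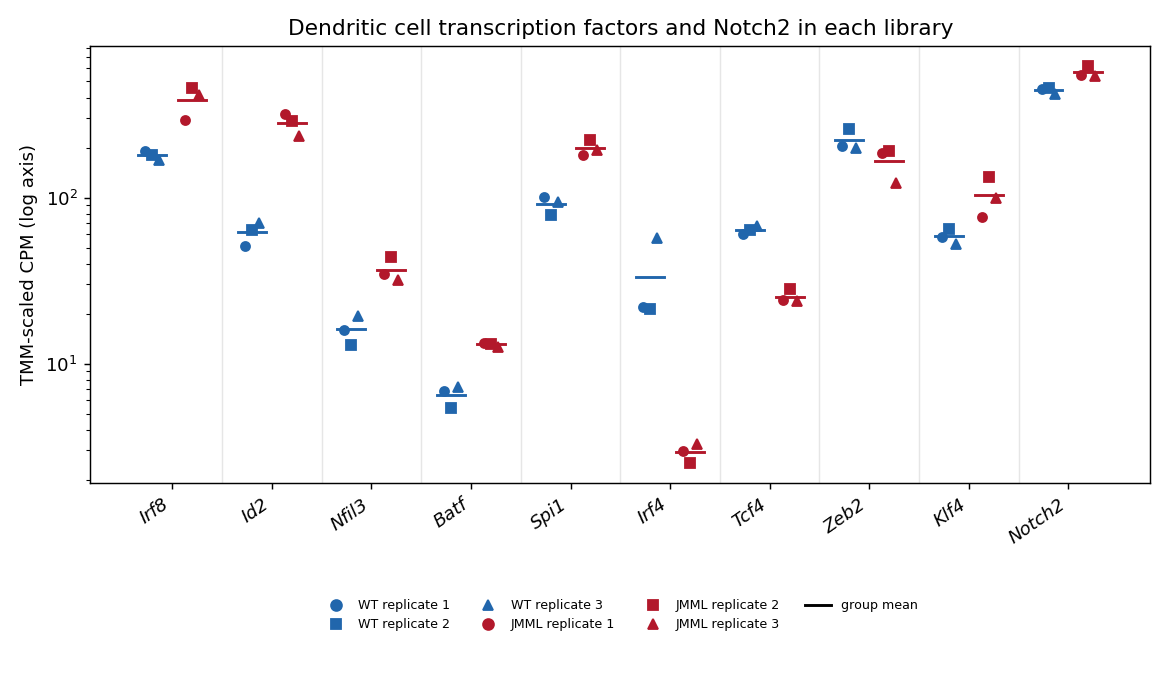
Scaled CPM of 9 dendritic cell transcription factors and the receptor gene Notch2 in every library on a log axis, with group means as bars. Every JMML library lay above every WT library for Id2 (281 ± 42.8 against 62.0 ± 9.78) and below every WT library for Tcf4 (25.3 ± 2.36 against 63.9 ± 3.23).

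Genes common to conventional dendritic cells were mostly higher. Of 15 listed, 9 were called higher and 1 lower, against 12.5% and 13.6% of all tested genes. The median log2 fold change was 1.72. The MHC class II genes H2-Aa, H2-Ab1 and H2-Eb1 had log2 fold changes of 3.29 ± 0.26, 3.24 ± 0.20 and 3.25 ± 0.30, and their invariant chain Cd74 had 2.79 ± 0.20 (adjusted p = 0.000761 to 0.00165). Ciita, the coactivator that switches these genes on, was at 46.0 ± 4.53 scaled CPM in JMML and 7.80 ± 0.562 in WT (2.56 ± 0.14, adjusted p = 0.000432). Itgax, the gene of CD11c, was at 45.6 ± 4.56 and 13.8 ± 1.79 (1.72 ± 0.15, adjusted p = 0.00144). The gene called lower was Kit, the receptor of progenitors and mast cells, with −0.75 ± 0.14 (adjusted p = 0.00953), and this call ended with the letter in the model (adjusted p = 0.0687) and among M libraries (0.0850).

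Genes of the cross-presentation machinery were mostly higher as well, by smaller amounts. Of 19 tested genes of 20 listed, 13 were called higher and 0 lower, against 12.5% and 13.6% of all tested genes. The median log2 fold change was 0.67. Without adjustment 15 were higher and 0 lower at a p under 0.05, and DESeq2 called 14 higher and 0 lower, limma-voom 12 and 0. The number called higher fell to 7 without WT 2 and to 9 without JMML 2, with library totals alone or with the replicate block. Mpeg1, the gene of perforin-2, a pore protein of endosomes, was at 1340 ± 146 scaled CPM in JMML and 517 ± 19.1 in WT (1.37 ± 0.13, adjusted p = 0.00161). Psmb8, an immunoproteasome subunit, had 1.23 ± 0.15 (adjusted p = 0.00297), Cyba, an NADPH oxidase subunit, 1.18 ± 0.17 (adjusted p = 0.00422), and Rab27a, a GTPase that brings that oxidase to phagosomes, 0.94 ± 0.14 (adjusted p = 0.00453). B2m, the light chain of MHC class I, had 0.84 ± 0.14 (adjusted p = 0.00622). These genes are used by macrophages and monocytes as well.

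Lists for other dendritic cells did not follow the cDC1 genes. Of 17 cDC2 genes, 5 were called higher and 4 lower, against 12.5% and 13.6% of all tested genes. The median log2 fold change was −0.30. The number higher was 0 without WT 2, 2 without WT 1, 3 without WT 3 and 1 with the letter in the model. The median was −0.07 without JMML 1, −0.08 without WT 3 or among M libraries, and −0.12 with the letter. Cd209a, a lectin of monocyte-derived dendritic cells and cDC2, had 0, 0 and 8 counts in JMML and 633, 486 and 348 in WT (edgeR adjusted p = 0.00299), and all its JMML counts were in JMML 3. Tmem176a and Tmem176b were lower by −1.10 ± 0.18 (adjusted p = 0.00588) and −0.96 ± 0.17 (adjusted p = 0.00806). Itgam, the gene of CD11b, was higher by 0.94 ± 0.21 (adjusted p = 0.0173), a call that ended without WT 1 (adjusted p = 0.0531), without WT 2 (0.0649), with the letter in the model (0.0767) and among M libraries (0.0778). Itgam is shared with monocytes and granulocytes. Mgl2 was also higher, by 0.73 ± 0.17 (adjusted p = 0.0188). Its call ended with library totals alone (adjusted p = 0.0590), with the replicate block (0.0517), without JMML 3 (0.0536) and without WT 2 (0.0765).

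Of 16 plasmacytoid dendritic cell genes, 15 were tested, with 0 called higher and 4 lower (Tcf4, Bcl11a, Runx2 and Atp1b1). Of all tested genes 12.5% were called higher and 13.6% lower. The median log2 fold change of the 15 genes was −0.90. This median was −0.22 among M libraries, −0.35 with the letter in the model or without WT 3, −0.40 without JMML 2 and −0.57 without JMML 1, and the Atp1b1 call ended with the letter (adjusted p = 0.0819) and among M libraries (0.0970). At an unadjusted p under 0.05 edgeR had 1 higher and 5 lower, DESeq2 called 1 and 6, and limma-voom 0 and 5. Without JMML 3 the number lower was 7, and without JMML 1 the number higher was 2. Bcl11a, a factor of plasmacytoid and B lineage cells, was at 34.9 ± 3.34 scaled CPM in JMML and 109 ± 15.7 in WT (−1.65 ± 0.14, adjusted p = 0.00141). The surface marker Siglech, named after its values were seen, was at 2.87 ± 2.67 and 8.15 ± 3.49 and its groups overlapped (adjusted p = 0.147), while without JMML 3 it was called lower (−2.60, adjusted p = 0.00829).

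Genes of mature, migrating dendritic cells were split. Of 13 tested, 4 were called higher and 3 lower, against 12.5% and 13.6% of all tested genes. The number higher was 1 without JMML 2 and 2 without any 1 of the WT libraries, and the number lower was 1 without any library other than JMML 3. The costimulatory gene Cd86 was at 39.3 ± 6.45 scaled CPM in JMML and 11.5 ± 1.498 in WT (log2 fold change 1.78 ± 0.17, adjusted p = 0.00165). Ccr7, the receptor that guides mature dendritic cells to lymph nodes, was lower, at 1.82 ± 0.513 against 3.52 ± 0.298 (−0.95 ± 0.29, adjusted p = 0.0454), and this call ended in 9 of the 15 alternatives. The calls of Cd80 and Cd83 ended with the letter in the model, where their log2 fold changes were 0.64 and 0.63, and among M libraries (0.68 and 0.67). Leaving out JMML 2 or WT 3 ended both calls, leaving out JMML 1 or WT 1 ended that of Cd80, and leaving out WT 2 ended that of Cd83.

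The gene of the XCR1 ligand had few counts. Xcl1 had 13, 41 and 188 counts in JMML and 55, 38 and 49 in WT (log2 fold change 0.11 ± 0.83, adjusted p = 0.932), with JMML 3 far above the other libraries, and the sign turned without it (−1.51, adjusted p = 0.0807) and with 3 other alternatives (library totals alone −0.05, limma-voom −0.65, replicate block −0.63). Crtam, the T and NK cell receptor that binds CADM1, was at 0.350 ± 0.275 against 1.27 ± 0.439 scaled CPM (−1.85 ± 0.60, adjusted p = 0.0558), and 6 of the 15 alternatives called it lower. Both were named after their values were seen. Ptpn6, the phosphatase SHP-1, which binds the tail of CLEC9A, was higher by 0.87 ± 0.16 (adjusted p = 0.00849), and its adjusted p was 0.0505 without WT 2.

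Markers of other cells that share genes with these lists moved too. Over all tested genes, 12.5% were called higher and 13.6% lower. Of 10 monocyte markers, 7 were called higher and 0 lower (edgeR, 8 higher and 1 lower at an unadjusted p under 0.05, DESeq2 8 and 0, limma-voom 6 and 0), and their sum was 3473 to 6628 scaled CPM in JMML and 2436 to 2692 in WT, lowest within JMML in JMML 3. Of 12 macrophage markers, 1 was higher and 5 lower, with sums of 204 to 441 and 447 to 718, and the number lower was 3 without JMML 2, WT 1 or WT 2 and 10 with the letter in the model. All 10 T cell markers and all 10 B cell markers were called lower, 2 and 1 of them with the letter in the model, and 3 and 0 among M libraries only. Without WT 2, 5 of the T cell markers were called lower. Of 10 NK cell markers, 0 were called in either direction (edgeR, 2 higher and 0 lower at an unadjusted p under 0.05, DESeq2 2 and 0, limma-voom 1 and 0), and 4 were called higher without JMML 1. Of 9 tested mast cell and basophil markers 6 were lower, with sums of 243 to 298 and 411 to 537, and 2 were lower without WT 1 and 3 without WT 2. Kit is among the 6 and is also on the list common to conventional dendritic cells. It gave 106 to 118 scaled CPM of the JMML sums and 166 to 229 of the WT sums. No marker of these lists was at 0 in all JMML libraries, and the part of these cells in the values of the cDC1 genes was not tested. JMML 1, lowest of the JMML libraries for 6 of the 10 cDC1 genes, was the highest for the monocyte sum, at 6628 scaled CPM. JMML 2 was close to it in that sum, at 6515, and was the highest JMML library for Cadm1, Itgae, Wdfy4 and Snx22.

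**Figure D4:**
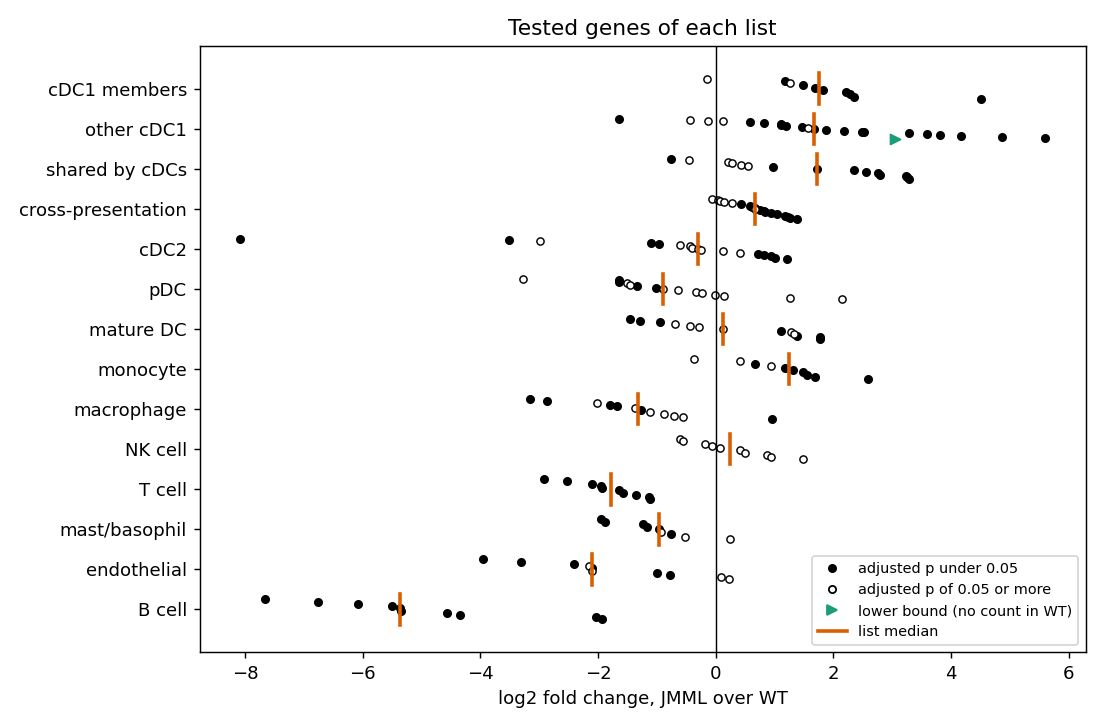
Log2 fold change, JMML over WT, of every tested gene of the dendritic cell lists and lists of other cell types, 1 point per gene, with the median of each list as a line. The triangle is the lower bound for Cd207, which had no WT count, and the medians run from −5.36 for B cell markers to 1.76 for the 10 cDC1 genes.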

How the data were processed

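Total RNA of 6 mouse libraries was prepared with a stranded total RNA kit, per the labels' protocols. For each library the authors deposited raw read counts by Ensembl identifier. The submitters' processing notes name the genome build GRCm38 and, among the tools, the aligner STAR 2.5.3a and the assembler StringTie 1.3.3b. For the counting program, its annotation and its strand setting, the entry is: not given in the sources used here. Even values made up 51.6% to 58.8% of counts from 1 to 20 in each library, so some fragments may have been counted as 2 reads. Of 46078 identifiers, 45229 matched GENCODE vM21, and the others held 0.142% to 0.167% of counts. Every pair of libraries differed by far more than sampling noise.

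Genes were filtered with filterByExpr, scaled by TMM and tested with edgeR 4.0.16 (robust quasi-likelihood fit on group, Benjamini-Hochberg adjustment over all 18097 genes, threshold 0.05) in R 4.3.3, checked on simulated counts. SE is the log2 fold change divided by the root of F. Alternatives used DESeq2 1.42.0, limma 3.58.1, other scalings and filters, the identifier letter, the replicate number, and leaving out each library. The common biological coefficient of variation was 29.4%. Fold changes are JMML over WT.

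Named genes were the 10 members, up to 6 genes with the smallest p of each of 15 other lists, 7 factors, and the 5 genes most like Xcr1. The members and lists were chosen with earlier results of these data known. Flt3l had no identifier in the tables and was not analysed here. Sequences and motif windows were from RefSeq (GRCm38.p6). Xist and Ddx3y, named besides, check the identifier letters.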

Additional observations from a re-analysis of the deposited data

How the results depend on the processing

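The 10 cDC1 genes gave 150 values over the 15 alternatives, of which 0 changed sign, 143 stayed on their side of the threshold, 4 lost the call (Cadm1 and Itgae) and 3 gained it (Gcsam). Between 6 and 9 were called higher. Over all genes, 4717 calls became 2879 with the replicate number as a block, 2370 with the identifier letter as a covariate and 2611 among M libraries only, the last with 4 libraries. Leaving out 1 library gave 2251 calls (without WT 2) to 4035, and 3119 without JMML 2. Scaling by library totals alone shifted the median log2 fold change by −0.18 and left 27.2% of calls higher in place of 48.0%, and the 8 calls among the 10 genes remained 8 in number.

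The replicate numbers did not pair the libraries (correlations of −0.20, 0.05 and −0.14 for equal numbers), and JMML 1 and 3 correlated best with a WT library of another number. The identifiers of JMML 3 and WT 3 begin alike, before the hyphen, and the labels do not say what that part stands for. With the replicate block 8 of the 10 genes were called higher.

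Of 1423 values of 95 other named genes, 1264 were unchanged in call, 127 lost and 28 gained one, and 4 changed sign. These were Eomes, at −0.56 as reported and 0.061 with the letter, 0.10 among M libraries and 0.010 without WT 2 (−0.97 to 0.010 when 1 library was left out), and Batf2, at 0.32 as reported and −0.11 without JMML 2 (−0.11 to 1.03). Neither gene was called, and the cause was not tested. Depth limits Batf2 (9 to 49 counts) and the WT values of Batf3 (31 to 37 counts). Genes named after their values were seen are not among the 95, and of those Xcl1 changed sign in the alternatives given above.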

Other observations

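Natural killer cells are among the cells that meet cDC1. Their 10 markers summed to 67.8, 103 and 130 scaled CPM in JMML 1 to 3 and to 74.2, 77.4 and 68.6 in WT 1 to 3. Gzma, a granule protease, was at 11.6 ± 6.09 in JMML and 4.15 ± 2.01 in WT (SD, n = 3 each), with a log2 fold change of 1.48 ± 0.50 (edgeR adjusted p = 0.0680), and 5 of the 15 alternatives called it higher. Klrk1, the gene of the receptor NKG2D, was at 14.3 ± 3.22 and 7.87 ± 2.61 (log2 fold change 0.87 ± 0.27, adjusted p = 0.0515), and 7 of the 15 alternatives called it higher. Irf7, the interferon factor abundant in plasmacytoid dendritic cells, was at 56.3 ± 43.5 in JMML and 12.7 ± 2.03 in WT, and its groups overlapped (log2 fold change 2.15 ± 0.69, adjusted p = 0.0657). JMML 1, at 12.7 scaled CPM, was the JMML library within the WT range, the others being at 56.5 and 99.6. Irf7 was called higher without JMML 1 (2.63, adjusted p = 0.00383) and by DESeq2 (adjusted p = 0.0207). Among M libraries, where JMML 3 stood alone for JMML, its log2 fold change was 3.01.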
